A study of Homo sapiens with 8 samples.

Results

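A pair of short hairpin RNAs against connexin 43 was compared directly, hairpin 2 (Cx43sh2) against hairpin 1 (Cx43sh1), in carcinoma cells that had been grown with astrocytes. The comparison used 4 of the 8 libraries of the series, 2 per hairpin, and all genes that had an ENSG identifier and averaged 10 counts or more per library, which gave 15806 of 57445 genes. The cells were MDA231-BrM2, derived from the breast cancer line MDA-MB-231 and prone to metastasis in the brain, cultured in DMEM with fetal bovine serum. Both hairpin groups shared the same treatment, a coculture with astrocytes at 1 astrocyte per carcinoma cell for 24 h. The other 4 libraries, carcinoma cells with a control hairpin grown alone (2 libraries) or with astrocytes under the same conditions (2 libraries), gave the reference levels. The RNA came from polysomes pulled down with an anti-GFP antibody, a method called translating ribosome affinity purification (TRAP), so that it was read from the tagged carcinoma cells of a mixed lysate. No cells with a connexin 43 hairpin were grown without astrocytes, so what a hairpin did by itself and what it did to the response to astrocytes cannot be told apart. Each hairpin is 1 targeting sequence, and whether the cells were pools or clones is not given in the sources used here.

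Connexin 43, encoded by GJA1, is the most widely expressed gap junction protein. Its hexamers dock between neighbouring cells and form channels through which ions and small molecules such as cyclic dinucleotides pass. Astrocytes are rich in connexin 43, and brain-metastatic carcinoma cells can form such channels with them. Cyclic GMP-AMP that enters an astrocyte activates the STING pathway, and the interferon and TNF that the astrocyte then releases act on the carcinoma cell through their receptors. Different hairpins against 1 gene remove its transcript to different degrees and can also act on other transcripts, so a direct comparison shows which differences exist between lines that carry the same label of depletion.

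The total of gene counts was 42682395 and 40290379 for hairpin 1 and 41344009 and 43736498 for hairpin 2, within the range of 38219702 to 48997555 over the series. Levels are given as CPM, counts relative to the library total, scaled by TMM factors that ran from 0.975 to 1.03. A floor of 3 counts per library, which covers counting error only, lay between 0.0624 and 0.0805 CPM. The spread between replicate libraries differed among groups: the chi-square per degree of freedom was 32.6 for the hairpin 1 pair and 4.22 for the hairpin 2 pair, beside 13.6 for control cells alone and 22.0 for control cocultures. Summed markers of the breast line ran from 6885 to 7123 CPM in the 4 hairpin libraries. The sum of 25 astrocyte markers was 533 and 545 CPM with hairpin 1 and 571 and 541 CPM with hairpin 2. It was 611 and 647 CPM in control cocultures and 575 and 568 CPM in control cells alone, which held no astrocytes. CST3 (300 and 297 CPM) and GLUL (173 and 174 CPM) were high in those cells alone, so the sum is no measure of astrocyte RNA. GJB6 and S100B were at or under the floor in every library. The species of the astrocytes is not given in the sources used here, so how much of their RNA could be counted on the human genome, in these sums or in GFAP, is not known. Markers of microglia and macrophages summed to 257 to 288 CPM over the hairpin libraries, and TYROBP, C1QA, C1QB and AIF1 had no read in any library. Sums for fibroblast (526 to 608 CPM) and oligodendrocyte markers (253 to 296 CPM) overlapped between the hairpins. Those for endothelial (281 to 306 CPM) and neuron markers (26.4 to 27.5 CPM) were slightly higher in both hairpin 2 libraries.

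GJA1 was lower with either hairpin than in the control coculture, and slightly more of it remained with hairpin 2. Its level was 27.8 and 27.8 CPM with hairpin 1 and 31.7 and 33.8 CPM with hairpin 2. It was 65.9 and 64.7 CPM in the control cocultures, and 51.1 and 46.3 CPM in control cells alone. Both hairpin 2 libraries lay above both hairpin 1 libraries and all 4 lay below every control library. These levels were 42.6% of the control coculture for hairpin 1 and 50.1% for hairpin 2, with adjusted p of 1.86e-05 and 8.15e-05 (edgeR quasi-likelihood test with Benjamini-Hochberg adjustment over all tested genes, as for every adjusted p here). The difference between the hairpins was 0.24 on the log2 scale (SE 0.074), with an unadjusted p of 0.0111 and an adjusted p of 0.705, so it did not pass the threshold of 0.05. In RNA from bulk libraries, fewer cells that hold a transcript and less of it in each cell cannot be told apart.

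Of the other connexins and pannexins, 6 were tested, and none passed. GJA3, a connexin best known from the lens, was 10.6 and 11.9 CPM with hairpin 1 and 9.36 and 9.69 CPM with hairpin 2 (log2 difference -0.24, adjusted p 0.705). PANX1, which forms single-membrane channels, was 136 and 154 CPM against 139 and 146 CPM, and its libraries overlapped.

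Across the transcriptome 5 genes passed the test between the hairpins, 0.0316% of the 15806 tested: HSPA6, IL1B, OAS2 and RPN1 were higher with hairpin 2 (0.0253% of genes) and 1 gene was lower (0.00633%). The same test gave 1236 genes (7.82%) between hairpin 1 and the control coculture and 658 genes (4.16%) between hairpin 2 and the control coculture. The latter 2 contrasts share the control libraries. Without adjustment, 1084 genes (6.86%) had p under 0.05, of which 570 (3.61%) had higher and 514 (3.25%) lower values with hairpin 2. Both hairpin 2 libraries lay above both hairpin 1 libraries for 2879 genes (18.2%) and below them for 3029 genes (19.2%), together 37.4% of genes. The number of genes that passed depended on the settings: it was 18 with the Wald test of DESeq2, 304 with no minimum on counts, 2 when only the 4 hairpin libraries were fitted, and 0 with edgeR when hairpin 2 library 1 was left out, where 356 genes had an unadjusted p under 0.05. The differences of all genes are shown against their level in the plot of difference by level, and the values of GJA1, MMP1 and the 4 genes with higher levels in the plot of levels by library.

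**Figure D1:**
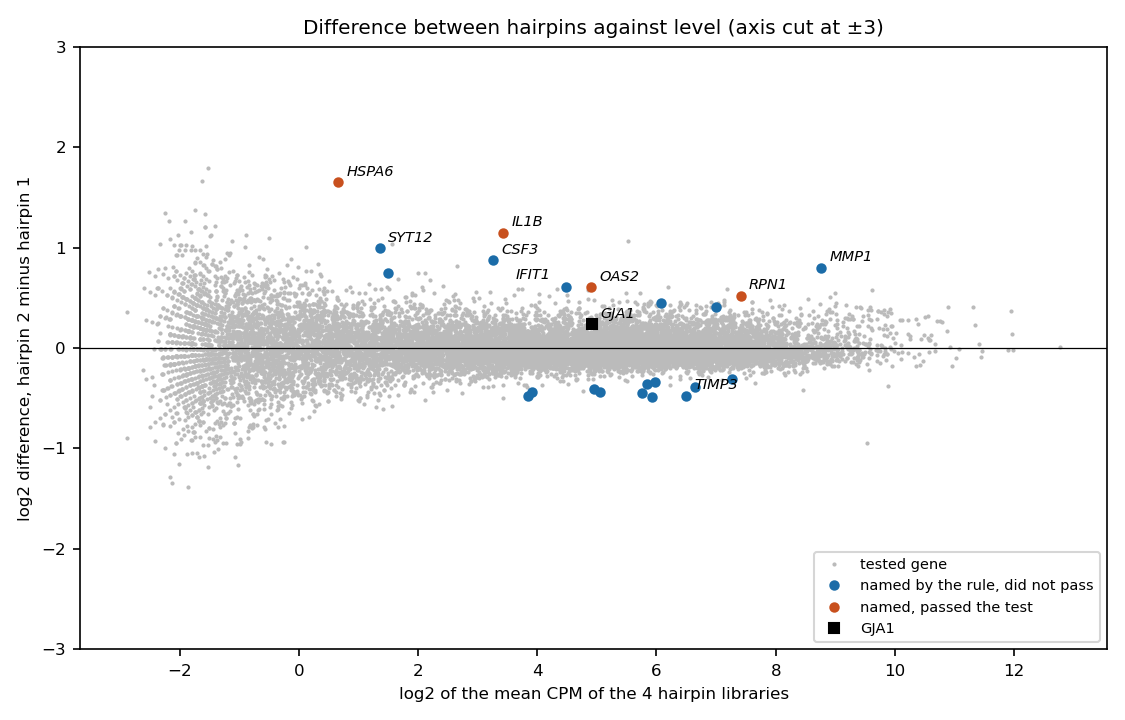
Log2 difference, hairpin 2 minus hairpin 1, against log2 of the mean CPM of the 4 hairpin libraries for each tested gene (grey), with named genes that passed (orange), genes named by rank that did not pass (blue) and GJA1 (black square). HSPA6, IL1B, OAS2 and RPN1 lie above the cloud, and 1 gene (RPS26P47, with reads in a single hairpin library) lies outside the axis.

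RPN1, a subunit of the oligosaccharyltransferase that attaches N-glycans to new proteins in the endoplasmic reticulum, differed through its level with hairpin 1. It was 143 and 137 CPM with hairpin 1 and 200.02 and 201 CPM with hairpin 2. The 4 control libraries held 217 to 219.9 CPM. Here the hairpin 1 libraries stood apart, and the hairpin 2 libraries lay below the controls by a small margin. RPN1 rose by 0.52 from hairpin 1 to hairpin 2 (SE 0.060, adjusted p 0.0461). It fell by 0.64 against the control coculture with hairpin 1 (adjusted p 3.81e-04), and the value with hairpin 2 was -0.12 (adjusted p 0.307). The 9 other subunits of the enzyme, looked up after this value was seen, did not pass, with log2 differences from -0.02 (STT3B, a catalytic subunit) to 0.28 (KRTCAP2).

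IL1B, the cytokine interleukin-1 beta, was 6.94 and 6.37 CPM with hairpin 1 and 15.4 and 14.1 CPM with hairpin 2. Control cocultures held 18.4 and 19.5 CPM, and control cells alone 3.45 and 3.79 CPM. The 4 groups did not overlap, and their order was control alone, hairpin 1, hairpin 2, control coculture. IL1B rose by 1.15 from hairpin 1 to hairpin 2 (SE 0.094, adjusted p 0.00678), a 2.22-fold difference. Hairpin 1 left 35.2% of the level of the control coculture (adjusted p 2.43e-05) and hairpin 2 left 78.2% (log2 difference -0.36, adjusted p 0.0623, which did not pass).

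OAS2, which makes the second messenger that activates RNase L and is induced by interferon, was 24.3 and 22.9 CPM with hairpin 1 and 36.0 and 35.9 CPM with hairpin 2. Control cocultures held 400.3 and 402 CPM and control cells alone 11.07 and 11.502 CPM. Both hairpins thus lay far nearer to the cells without astrocytes than to the control cocultures. OAS2 rose by 0.61 from hairpin 1 to hairpin 2 (SE 0.065, adjusted p 0.0400). Against the control coculture it fell by 4.09 with hairpin 1 and fell by 3.48 with hairpin 2.

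HSPA6, a stress-inducible member of the HSP70 family of chaperones, is kept at low levels in unstressed cells. It was 0.694 and 0.821 CPM with hairpin 1 and 2.58 and 2.21 CPM with hairpin 2. The 4 control libraries held 0.874 to 1.1003 CPM, so only the hairpin 2 libraries stood apart. HSPA6 rose by 1.66 from hairpin 1 to hairpin 2 (SE 0.19, adjusted p 0.0461) and by 1.28 from the control coculture to hairpin 2 (adjusted p 0.00708). Its count is uncertain where reads match HSPA7, a near-identical copy that did not reach the count minimum. The stretch before its start site that holds a heat shock element is shown because HSPA6 is the heat shock gene that passed. It is from RefSeq on GRCh38.p14, at chr1:161524441-161524503 on the plus strand, with the match to GAANNTTCNNGAA, found here on the opposite strand, in capitals.
HSPA6: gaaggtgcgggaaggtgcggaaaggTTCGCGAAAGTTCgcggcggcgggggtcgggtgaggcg
The motif was searched on both strands of the 300 bases from 250 before to 50 after each listed start site. It occurred for 6 of the 14 tested heat shock genes (42.9%) and for 0.608% of 27305 genes. A match describes the letters only. The other 13 heat shock genes did not pass between the hairpins, and 2 of them, HSPA1A and HSPA1B, had an unadjusted p under 0.05, with higher values in hairpin 2 (against 3.61% of all genes). The list of 14 had a median log2 difference of 0.06 (all genes, -0.01). HSPA1A was 3.79 and 3.21 CPM against 4.51 and 4.59 CPM and its near-identical neighbour HSPA1B 11.96 and 11.3 CPM against 14.6 and 13.7 CPM, each pair with hairpin 1 first.

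**Figure D2:**
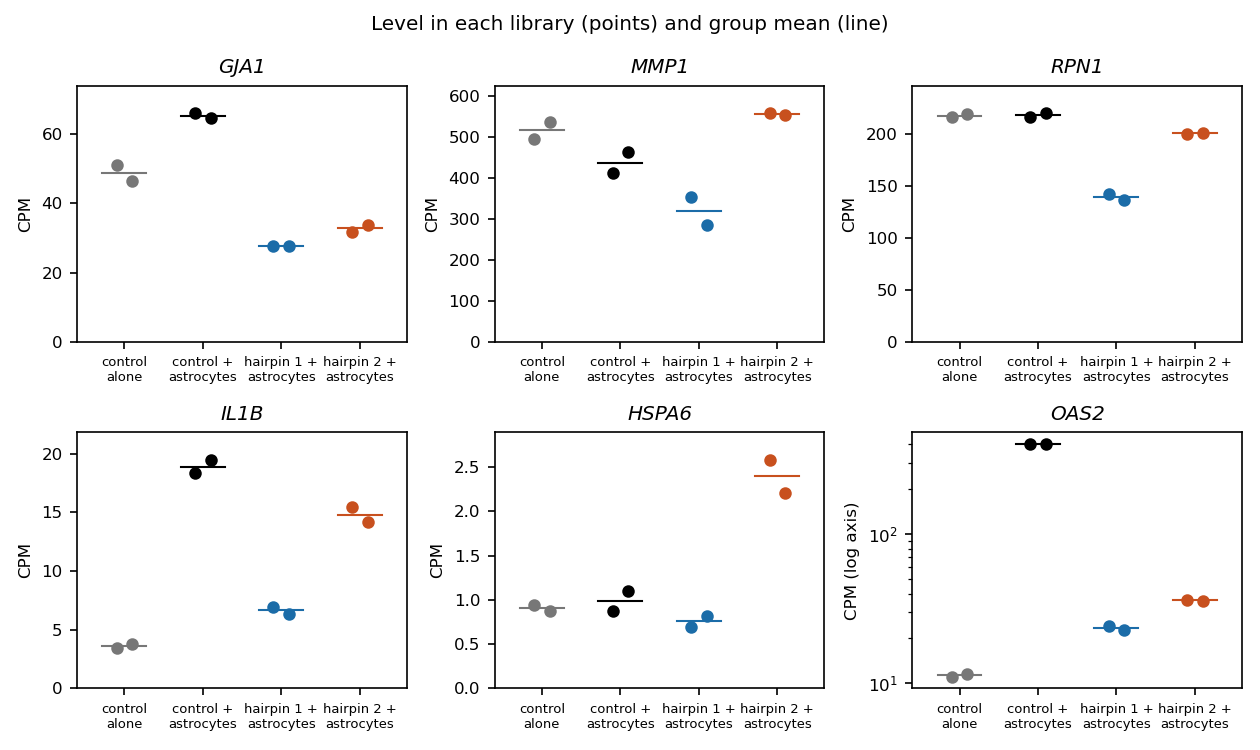
Level in CPM of GJA1, MMP1, RPN1, IL1B, HSPA6 and OAS2 in each of the 8 libraries (points, 2 per group) with the group mean (line), on a log axis for OAS2. HSPA6 stands apart with hairpin 2 and RPN1 with hairpin 1, and IL1B and OAS2 lie between control cells alone and the control coculture with both hairpins.

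Placed beside the controls, these 4 genes fell into different patterns. For HSPA6 the libraries with hairpin 2 lay outside the range of the other 6, and for RPN1 those with hairpin 1 did. For IL1B and OAS2 both hairpins lay between the cells alone and the control coculture, with hairpin 2 nearer to the control coculture. IL1B lost its call when either hairpin 2 library was left out (adjusted p 0.188 without library 1 and 0.0668 without library 2) and kept it without each of the other 6 libraries. OAS2, RPN1 and HSPA6 lost their call when any 1 library was left out, with adjusted p from 0.0737 to 0.881, from 0.0902 to 0.982 and from 0.0859 to 0.881.

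The genes with the next smallest p in either direction did not pass, and they are given by their values. Those with more reads in hairpin 2 come first. MMP1, a collagenase tied to invasion of breast cancer cells, was 352 and 284 CPM with hairpin 1 and 556 and 552 CPM with hairpin 2, beside 411 and 462 CPM in control cocultures and 495 and 535 CPM in control cells alone. Its log2 difference was 0.80 (SE 0.11, adjusted p 0.113), and the hairpin 2 libraries were the highest of the 8. CSF3, the granulocyte growth factor, was 7.402 and 6.16 CPM against 12.9 and 12.03 CPM (log2 difference 0.88, adjusted p 0.211), and its control cocultures held 21.1 and 24.0 CPM. IL11, a cytokine of the IL6 family, was 58.7 and 55.5 CPM against 81.2 and 74.4 CPM (0.45, adjusted p 0.216). None of these 3 genes had overlapping libraries between the hairpins, a condition of being named. The uridine phosphorylase gene UPP1 (0.41, adjusted p 0.271) and SYT12, a synaptotagmin (0.99, adjusted p 0.251), were also among them.

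Among genes with fewer reads in hairpin 2, TIMP3, an inhibitor of metalloproteases that binds to the matrix, was 99.4 and 109 CPM with hairpin 1 and 73.2 and 77.2 CPM with hairpin 2, beside 118 and 116 CPM in control cocultures (log2 difference -0.47, SE 0.070, adjusted p 0.211). Against the control coculture TIMP3 fell by 0.64 with hairpin 2 (adjusted p 0.00133), and its value with hairpin 1 was -0.16 (adjusted p 0.182). GFPT1, the first enzyme of hexosamine synthesis, was 67.8 and 73.7 CPM against 49.6 and 51.6 CPM (-0.48, adjusted p 0.211), and its control cocultures held 58.1 and 53.4 CPM. The control cocultures of GFPT1 thus lay between the hairpins, and those of TIMP3 above both. CDKN2B, an inhibitor of the kinases that start the cell cycle, was 17.1 and 17.8 CPM against 13.02 and 12.6 CPM (-0.44, adjusted p 0.251), and was 10.3 and 10.7 CPM in control cocultures. It rose by 0.73 with hairpin 1 against the control coculture (adjusted p 8.7e-04). The remaining genes of this direction were TINAGL1 (-0.43), PVRL3, which codes for the adhesion molecule nectin-3 (-0.39), PM20D2 (-0.36), EAF1, a partner of the elongation factor ELL (-0.45), LYPLA2 (-0.34), CCP110, a centriole cap protein (-0.41), and ELOVL5, which elongates polyunsaturated fatty acids (-0.31), with adjusted p from 0.211 to 0.635.

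GFAP, the filament protein by which astrocytes are recognised, was also among them. It was 16.5 and 16.9 CPM with hairpin 1 and 11.7 and 12.2 CPM with hairpin 2 (log2 difference -0.48, adjusted p 0.216). It was 13.8 and 12.8 CPM in control cocultures and 8.80 and 8.53 CPM in control cells alone, a group that held no astrocytes. Of the 19 astrocyte markers tested, 11 had a positive and 8 a negative log2 difference between the hairpins, with a median of 0.03 and none passing. The part of astrocyte RNA in this value was not tested.

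Interferon-stimulated genes, the transcripts switched on by type I interferon, lay far below the control coculture with both hairpins, and most were slightly higher with hairpin 2 than with hairpin 1. All 54 genes of the list were tested. All 54 lay below the control coculture with both hairpins, and 53 were called lower with each (background of 4.73% and 3.2% of all genes). Their median level was 13.7 and 12.8 CPM with hairpin 1 and 16.9 and 15.3 CPM with hairpin 2, beside 67.2 and 70.3 CPM in control cocultures and 8.93 and 9.19 CPM in control cells alone. As a median over the 54 genes, 22.1% of the level of the control coculture remained with hairpin 1 and 24.2% with hairpin 2. The summed level was 1687 and 1648 CPM with hairpin 1 and 1900 and 1879 CPM with hairpin 2. Both measures were higher in each hairpin 2 library than in each hairpin 1 library.

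Between the hairpins only OAS2 of the 54 passed, against a background of 0.0253% of all genes called higher. Values without adjustment leaned to hairpin 2: 24 members had p under 0.05 and a higher value with hairpin 2 (against 3.61% of all genes), and none had p under 0.05 in the other direction. For 39 members (72.2%, against 18.2% of all genes) both hairpin 2 libraries lay above both hairpin 1 libraries, and for none below (19.2% of all genes). The log2 difference was positive for 49 and negative for 5 members, namely TRIM14, IFIT5, PARP10, HERC5 and RTP4. The median was 0.23, where the median of all genes was -0.01. In the 4 pairings of a hairpin 2 with a hairpin 1 library the median of the list ran from 0.20 to 0.28. The list was put together with earlier results of these data known, and its members respond to the same signal, so these counts are not independent observations.

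The members with the smallest p were OAS2, IFIT1, OAS1, IFIT3, OAS3 and EPSTI1. IFIT1, which binds viral RNA with an unmethylated cap, was 19.4 and 16.01 CPM with hairpin 1 and 28.02 and 25.8 CPM with hairpin 2, beside 268 and 291 CPM in control cocultures (log2 difference 0.60, adjusted p 0.251). OAS1, of the same family as OAS2, was 2.36 and 1.83 CPM against 3.59 and 3.46 CPM, beside 68.3 and 72.9 CPM in control cocultures (0.75, adjusted p 0.275). IFIT3, a partner of IFIT1, was 23.3 and 21.5 CPM against 28.9 and 29.7 CPM (0.39, adjusted p 0.293). All 3 were higher in both hairpin 2 libraries, and none passed. OAS3 (0.35, adjusted p 0.650) and EPSTI1 (0.58, adjusted p 0.660) did not pass either. For OAS1, 2.97% of the level of the control coculture remained with hairpin 1 and 4.99% with hairpin 2, for IFIT1 6.34% and 9.64%, and for EPSTI1 10.4% and 15.5%.

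The following members, some of them with many reads, had differences from 0.43 (ISG15) to values near 0. ISG15, a protein modifier, was 58.8 and 49.5 CPM with hairpin 1 and 78.9 and 66.7 CPM with hairpin 2, beside 593 and 759.7 CPM in control cocultures (log2 difference 0.43, adjusted p 0.705). IFITM3, which blocks fusion of viral membranes, was 277 and 251 CPM against 321 and 300.1 CPM (0.23, adjusted p 0.705). BST2, which tethers budding virus, had a difference of 0.20. EIF2AK2, the kinase PKR, and TRIM14 had values near 0 (0.02 and -0.04), with overlapping libraries. The plot of interferon-stimulated genes shows the range over library pairings for each member.

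**Figure D3:**
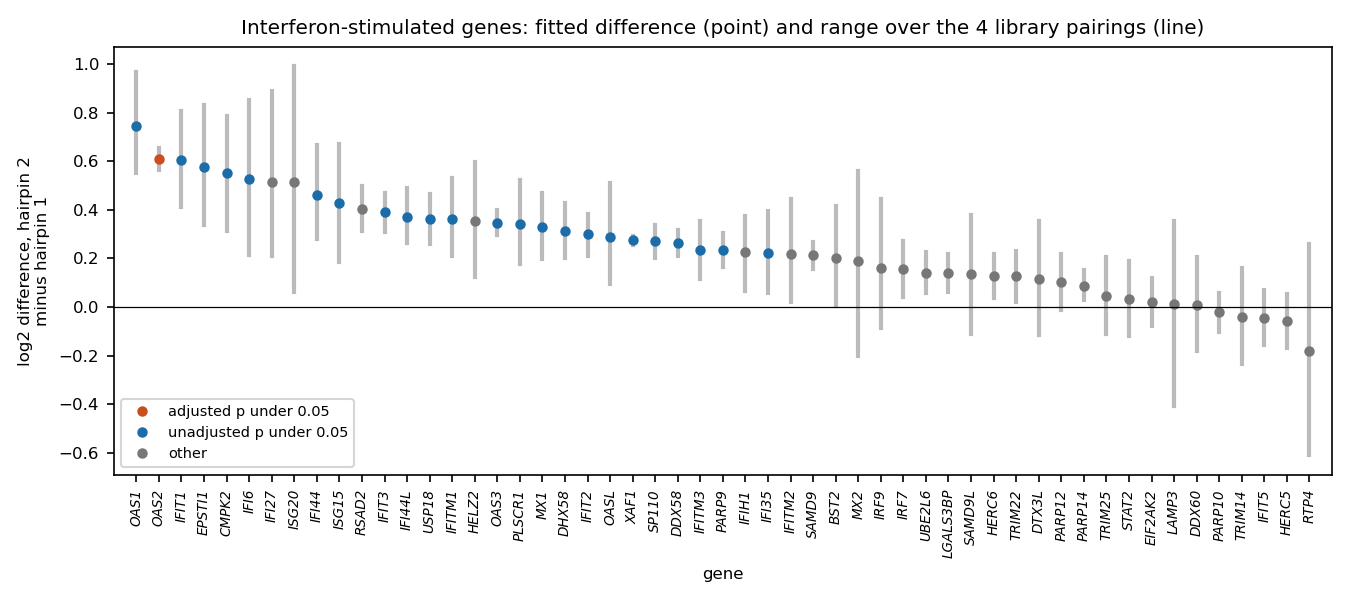
Fitted log2 difference, hairpin 2 minus hairpin 1, for 53 of the 54 interferon-stimulated genes, 1 not being shown (points, orange where the adjusted p was under 0.05, blue where the unadjusted p was), ordered by size, with the range over the 4 pairings of single libraries (line). For 48 members the point lies above 0, OAS2 has a narrow range around 0.61, and RTP4 and LAMP3 have wide ranges that cross 0.

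Stretches before the start sites of IFIT1, IFIT3 and EPSTI1 are shown because these members are among those with the smallest p and hold the interferon-stimulated response element, the sequence through which type I interferon acts on its target genes. They are from RefSeq on GRCh38.p14, in the direction of the gene, with matches to GAAANNGAAA or its reverse complement in capitals. IFIT1 lies at chr10:89392482-89392554 and IFIT3 at chr10:89327816-89327909, both on the plus strand, and EPSTI1 at chr13:42992257-42992316 on the minus strand.
IFIT1: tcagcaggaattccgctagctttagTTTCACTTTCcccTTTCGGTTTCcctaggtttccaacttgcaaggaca
IFIT3: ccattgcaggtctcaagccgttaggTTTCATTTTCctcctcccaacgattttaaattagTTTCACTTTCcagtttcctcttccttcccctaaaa
EPSTI1: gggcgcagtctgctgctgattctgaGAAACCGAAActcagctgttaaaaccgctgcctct
The motif was on either strand of the 300-base window for 29 of the 42 interferon-stimulated genes with an entry (69%) and for 4.38% of 27305 genes. It was there for 1 of 26 TNF and NF-kB targets (3.85%) and for 4 of 50 ribosomal protein genes (8%). IFIT1 and IFIT3 each have 2 matches on the strand opposite to the gene, and EPSTI1 has 1 on the strand of the gene. A match describes these letters and no more.

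Set beside the targeted transcript, the order of the coculture groups was the same for GJA1 and for most of the list. Control cells alone did not share this order. Their GJA1 (51.1 and 46.3 CPM) lay above that of both hairpins, and their median of the interferon-stimulated genes (8.93 and 9.19 CPM) lay below. GJA1 stood at 42.6% of the control coculture with hairpin 1 and at 50.1% with hairpin 2, and 39 of the 54 interferon-stimulated genes had non-overlapping libraries in the order control coculture, hairpin 2, hairpin 1. These are the 39 members counted above as higher without overlap (72.2%, against 18.2% of all genes), so the count is not a second observation. How many of all tested genes had this order was not counted. The reverse order, with hairpin 1 between the other groups, occurred for none, as no member was lower without overlap. The sizes differed: OAS2 stood at 5.88% and 8.97% of the control coculture, and IFITM3 at 42.5% and 49.96%. IL1B stood at 35.2% and 78.2%, and RPN1 at 64.0% and 91.9%. With 4 hairpin libraries in 2 groups no relation across samples could be tested, and any other difference between the lines moves with the difference in GJA1.

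The TNF and NF-kB targets, which include the cytokines released in inflammation, had 1 of 32 tested members called (IL1B). Without adjustment, 12 members had p under 0.05 with higher values in hairpin 2 and none with lower values, against 3.61% and 3.25% of all genes. The libraries did not overlap for 19 members with higher values (59.4%, against 18.2% of all genes) and for 1 with lower values. The median log2 difference was 0.14. CXCL2, a neutrophil chemokine, was 12.3 and 8.98 CPM with hairpin 1 and 16.3 and 15.7 CPM with hairpin 2, beside 17.8 and 21.4 CPM in control cocultures (log2 difference 0.59, adjusted p 0.705). CXCL1, its close relative, was 26.9 and 19.3 CPM against 35.7 and 33.3 CPM (0.58, adjusted p 0.705). IL8 was 55.1 and 42.7 CPM against 68.5 and 65.3 CPM, beside 101 and 123 CPM in control cocultures (0.45, adjusted p 0.705). In each of these chemokines hairpin 1 library 2 was the lowest of the 4 hairpin libraries. CSF2 (0.73) and NFKBIA, the inhibitor that NF-kB itself induces (0.30), did not pass. Against the control coculture 18 of the 32 targets were called lower with hairpin 1 and 8 with hairpin 2 (against 4.73% and 3.2% of all genes), and that difference between the counts was not tested.

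Lists on related routes had medians from -0.02 to 0.14. Interferon-gamma-inducible genes (24 tested) had a median of 0.06, with 9 higher and 2 lower without overlap (37.5% and 8.33%, against 18.2% and 19.2% of all genes, which is also the background for the lists that follow). Cytosolic DNA and RNA sensing (15 tested) had 0.09, with 8 and 2, and the ligands, receptors and JAK kinases of the interferon route (9 tested) had -0.02, with 1 and 0. Genes of brain metastasis (18 tested) had a median of 0.14, with 11 and 2, and metalloproteases and invasion genes (18 tested), which hold MMP1 and TIMP3, had 0.06, with 8 and 2. No member of these 5 lists passed.

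Transcript length followed the difference between the hairpins across the transcriptome. Length here is that of the longest transcript of each gene in GENCODE release 29, matched by identifier for 15434 genes, which were divided into deciles. In the shortest decile, with a median length of 776 bases, the median log2 difference was 0.19 and 72.9% of genes had a positive value. It went down to 0.11, 0.05 and 0.03 over the next 3 deciles, crossed 0 in the fifth, and was -0.07 in the longest decile, with a median length of 9288 bases and 26.6% of genes positive. Libraries of the hairpins did not overlap, with hairpin 2 higher, for 34.0% of the shortest and 7.12% of the longest decile, and with hairpin 2 lower for 8.55% and 22.4%. Unadjusted p under 0.05 was found for 127 genes with higher and 16 with lower values in the shortest decile, and for 12 and 64 in the longest. Across genes Spearman's rho between length and difference was -0.38 with transcript length (15434 genes), -0.36 with coding length (13261 genes) and 0.12 with GC content. These are descriptions across genes that share 4 libraries.

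A relation with length was also found between the replicates of every group, and it was largest in hairpin 1 library 2. The shortest decile minus the longest, as deviation from the mean of the 8 libraries, was -0.04 and -0.47 on the log2 scale in the hairpin 1 libraries and 0.08 and -0.07 in the hairpin 2 libraries, beside -0.16 to 0.35 in the 4 control libraries. Hairpin 1 library 2 thus had the fewest reads in short transcripts of the 8 libraries. Between the hairpin 1 libraries (library 2 minus library 1) the median ran from -0.29 in the shortest to 0.17 in the longest decile, with a rho of 0.46. Between the hairpin 2 libraries it ran from -0.08 to 0.08, with a rho of 0.32. The control pairs had the opposite sign. Between the control cocultures it ran from 0.25 to -0.13, with a rho of -0.43. Between the libraries of control cells alone it ran from 0.15 to -0.06, with a rho of -0.29. Between the hairpins rho was -0.50 and -0.42 in pairings with hairpin 1 library 2, and -0.16 and 0.11 in pairings with hairpin 1 library 1, where the sign was not the same. Without hairpin 1 library 2, the shortest decile exceeded the longest by 0.04 in place of 0.26, and without hairpin 1 library 1 by 0.50. The cause of the length trend was not tested.

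**Figure D4:**
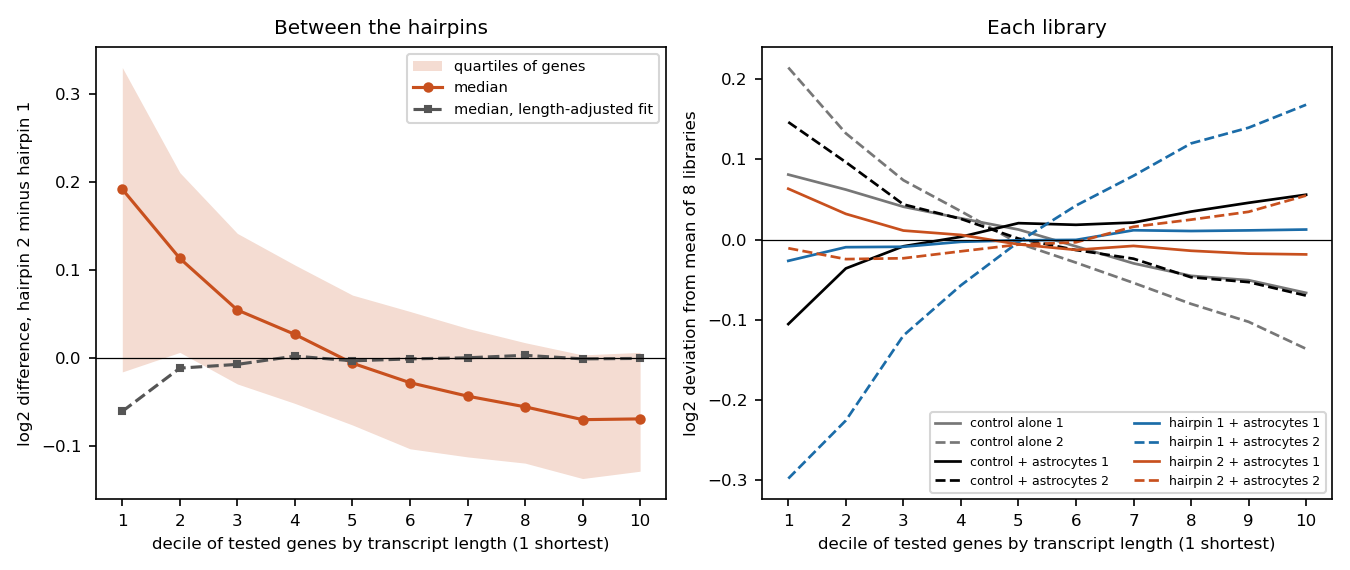
Left, median log2 difference, hairpin 2 minus hairpin 1, by decile of genes ordered by transcript length (orange, with the quartiles shaded) and the same from a fit in which each library's trend with length was removed (grey). Right, median deviation of each library from the mean of the 8; hairpin 1 library 2 (blue, dashed) goes from -0.30 in the shortest to 0.17 in the longest decile, and hairpin 1 library 1 stays within 0.03 of 0.

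Several groups of short transcripts, though not all, had positive medians like the shortest decile. Ribosomal protein genes had both hairpin 2 libraries above both hairpin 1 libraries for 60 of 63 members (95.2%, against 18.2% of all genes and 34.0% of the shortest decile) and a median log2 difference of 0.30, with none passing. RPL13, a protein of the large subunit, was 856 and 732 CPM with hairpin 1 and 1062 and 948 CPM with hairpin 2 (log2 difference 0.34, adjusted p 0.705). RPS3, of the small subunit, was 831 and 632 CPM against 981 and 914 CPM (0.37, adjusted p 0.705). In both genes hairpin 1 library 2 was the lowest of the 8 libraries. Nuclear genes of oxidative phosphorylation (64 entries) had 38 members higher without overlap (59.4%) and a median of 0.24. A list of small ubiquitous proteins with short transcripts (25 tested) had 19 (76%) and a median of 0.32. The background for both is again 18.2% of all genes and 34.0% of the shortest decile. Many of these genes have processed pseudogenes, so their counts are uncertain. The lists of giant transcripts had medians near 0: -0.01 for 28 cytoskeletal giants and dynein chains and -0.03 for 25 giant ligases, kinases and chromatin factors. Of these, 2 and 1 members were higher without overlap (7.14% and 4%, against 18.2% of all genes and 7.12% of the longest decile).

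After each library's trend with length had been removed, the medians of these 3 short-transcript lists shrank, to 0.14 for ribosomal proteins, 0.08 for oxidative phosphorylation and 0.08 for small ubiquitous proteins. The median of the interferon-stimulated genes was 0.20 in that fit, with 48 of 54 values positive, and that of the TNF and NF-kB targets was 0.13. The median transcript length of these lists was 3320.5 and 2559.5 bases (all genes, 3147). At such lengths the trend was near 0, with decile medians of -0.03 and 0.03. Removing it could therefore change these medians little, and their values in that fit are no test of length. The median of the shortest decile was -0.06 in that fit. This value and the fall of the 3 short-transcript lists follow by construction from removing the trend. The number of genes that passed was 14 (0.0886% of those tested), 10 higher (0.0633%) and 4 lower (0.0253%) with hairpin 2. They included the 4 genes named above, with log2 differences of 1.05 for IL1B, 0.49 for RPN1, 0.66 for OAS2 and 1.63 for HSPA6. Others among them were MMP1 (0.75, adjusted p 0.00491), CSF3 (0.78), IL11 (0.41), UPP1 (0.35), OAS3 (0.42), TIMP3 (-0.42), GFPT1 (-0.41) and PPIL1, a peptidyl-prolyl isomerase of the spliceosome (-0.50). GJA1 had a difference of 0.25 there, with an adjusted p of 0.383. Within the interferon-stimulated genes the adjustment touched short members most: IFITM3, with a transcript of 808 bases, went from 0.23 to -0.03, and ISG15, with 787 bases, from 0.43 to 0.17. OAS2 and IFIT1, with 4734 and 4613 bases, went from 0.61 to 0.66 and from 0.60 to 0.65. The TNF and NF-kB targets named above all had smaller differences in that fit. CSF2 went from 0.73 to 0.48, CXCL2 from 0.59 to 0.43 and CXCL1 from 0.58 to 0.40. IL8 went from 0.45 to 0.37, NFKBIA from 0.30 to 0.19 and IL1B from 1.15 to 1.05. The common biological coefficient of variation over the 8 libraries was 7.66% before and 5.89% after the adjustment. A lower spread follows by construction when a curve fitted to each library is removed from it.

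**Figure D5:**
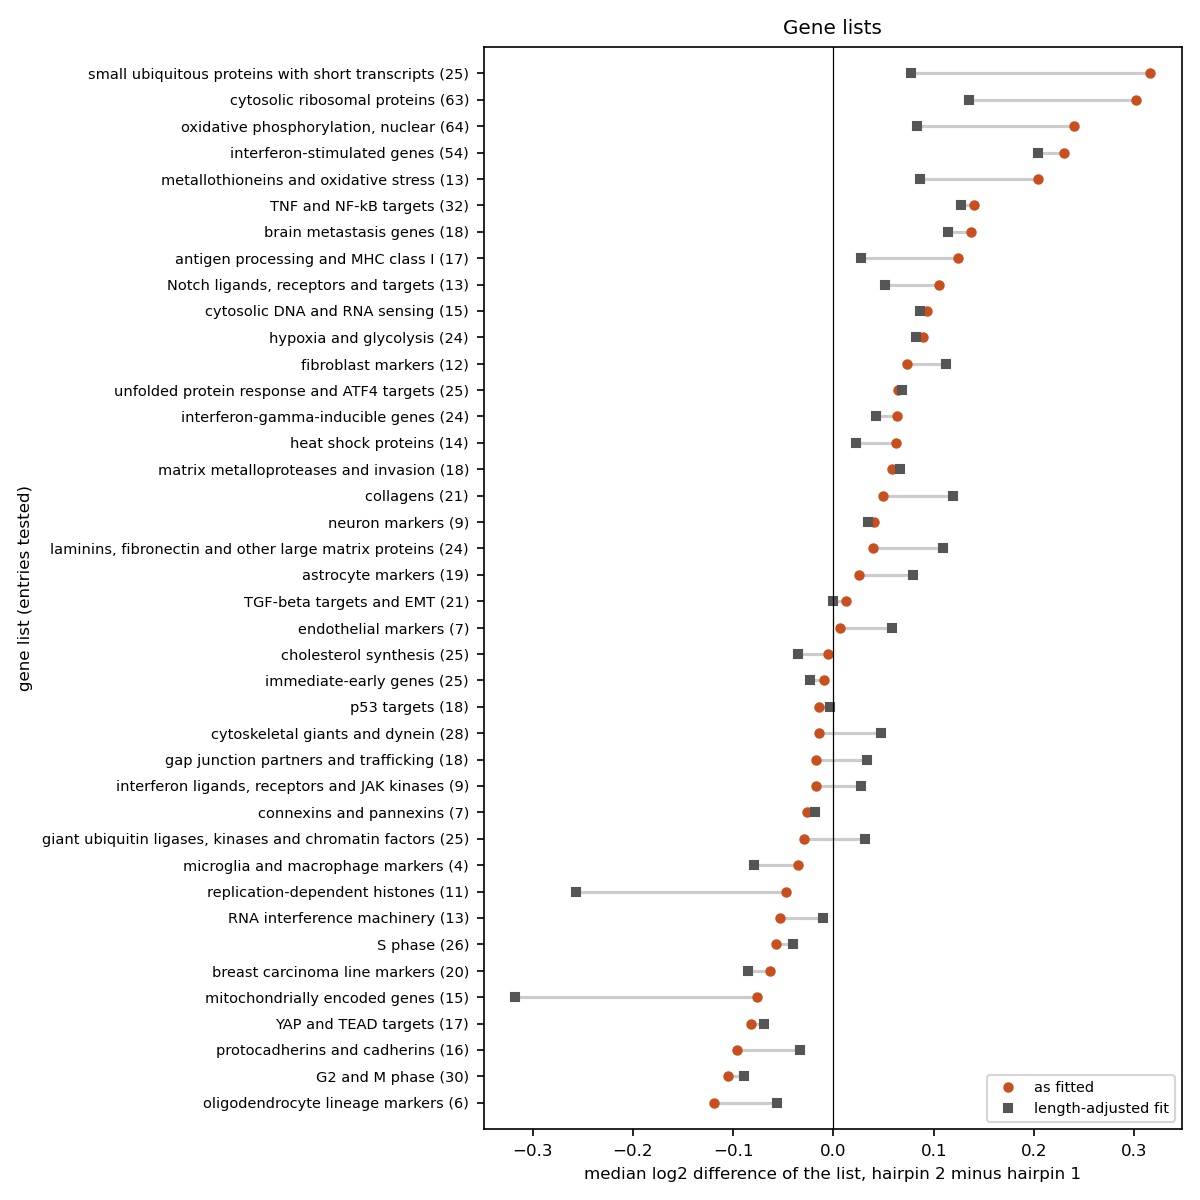
Median log2 difference, hairpin 2 minus hairpin 1, of each of the 40 gene lists (number of tested entries in brackets), as fitted (orange) and from the fit with the length trend removed (grey). Small ubiquitous, ribosomal and oxidative phosphorylation genes move towards 0, and mitochondrially encoded genes and histones move away from it. Interferon-stimulated genes, with a median length of 3320.5 bases, where the trend is near 0, have a median of 0.20 in the second fit.

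Other groups leaned the opposite way. Genes of G2 and M phase had a median of -0.11, with 16 of 30 lower without overlap (53.3%, against 19.2% of all genes), 1 higher, and none passing. CCNA2, cyclin A2, was 311 and 314 CPM with hairpin 1 and 257 and 263 CPM with hairpin 2, beside 279 and 277 CPM in control cocultures (log2 difference -0.26, unadjusted p 0.00218, adjusted p 0.705). BUB1, a kinase of the spindle checkpoint, was 70.2 and 72.0 CPM against 61.4 and 65.4 CPM (-0.17, adjusted p 0.705). NEK2, a centrosomal kinase, and TPX2, a spindle assembly factor, had differences of -0.16 and -0.15. The median of the G2 and M list with the length trend removed was -0.09, with 28 of 30 values negative. Genes of S phase (26 tested) had a median of -0.06, with 11 lower and 2 higher without overlap (42.3% and 7.69%, against 19.2% and 18.2% of all genes), and YAP and TEAD targets (17 tested) had -0.08, with 6 and 1.

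Mitochondrially encoded genes (15 tested) had a median of -0.08 as fitted and -0.32 with the length trend removed, and replication-dependent histones (11 tested) had -0.05 and -0.26, with no member of either list called. Both lists consist of short transcripts, so removing the trend moved their medians down, away from 0, by construction. The second values are therefore no measure of a stronger fall. Hypoxia and glycolysis genes (24 tested) had a median of 0.09, with 15 higher and 2 lower without overlap (62.5% and 8.33%, against 18.2% and 19.2% of all genes). The unfolded protein response (25 tested) had 0.06, with 8 and 0. Cholesterol synthesis (25 tested) had -0.01, with 4 higher and 7 lower (16% and 28%), shares near those of all genes. Collagens (21 tested) and large matrix proteins (24 tested) had medians of 0.05 and 0.04 as fitted and 0.12 and 0.11 with the length trend removed. Collagens had 13 positive and 8 negative values as fitted. Of them 4 were higher and 3 lower without overlap (19.0% and 14.3%), shares near those of all genes. Large matrix proteins had 18 positive and 6 negative values, with 8 higher and 1 lower (33.3% and 4.17%). No gene of these 7 lists passed as fitted.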

How the data were processed

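Ribosome-associated RNA of 8 libraries in 4 groups of 2 was analysed. The submitters' processing notes name TopHat2, HTSeq, DESeq2 and the build hg19, with no versions, and library preparation was with a TruSeq RNA v2 kit per the labels. Gene annotation, mode of counting and strandedness are not given in the sources used here. That kit does not mark strand, so reads of overlapping genes on opposite strands (TIMP3 within SYN3, CDKN2B with its antisense RNA) cannot be told apart. The deposited table holds counts per gene. Its name calls them normalized, but the values were checked to be whole and unscaled. Alignments that were not unique (14.2% to 26.1% of all entries), like the other HTSeq counter entries, were left out. All columns were mapped to libraries by title.

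The test was the quasi-likelihood F test in edgeR 4.0.16 (limma 3.58.1, R 4.3.3), with TMM factors, all 8 libraries and 4 groups in 1 fit, a mean count of at least 10, and Benjamini-Hochberg adjusted p at 0.05. It was first run on simulated counts with the same spread for all genes and planted changes larger than those of OAS2 and RPN1. That run is no check of such calls. Standard errors were the log2 difference divided by the square root of F. The series design calls the libraries of a group independent replicates; nothing more is given on them, so p-values measure the spread between these samples. Lengths, matched for 97.6% of tested genes, came from GENCODE release 29, which is on GRCh38 and not on the hg19 build of the counts. The length-adjusted fit used an offset per library, a lowess curve (span 0.3) of its deviation against log2 length.

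The comparison, the members and the 40 lists were chosen with earlier results of these data known. Lists share some members. Named genes were GJA1 and the 12 largest rises and falls among called genes with a group mean of at least 50 counts, no overlap between hairpins and an established symbol (no clones, pseudogenes, antisense, small RNA or open reading frame entries), filled up by smallest p. Up to 6 members per list by smallest p, and the 6 interferon-stimulated genes of highest CPM (not scaled by length), were added. Some genes that these rules select are not reported here. RPS26P47, PANX1, PPIL1, the other oligosaccharyltransferase subunits and the comparison of remaining levels were chosen after values were seen. Alternatives were DESeq2 1.42.0 (its size factors, its Wald test), other count minimums, fits of fewer groups, a replicate block, length offsets and leaving out each library.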

Additional observations from a re-analysis of the deposited data

How the results depend on the processing

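The number of genes called between the hairpins (5 as reported) was 5 with DESeq2 size factors, 18 with the DESeq2 Wald test, 304 with no count minimum (278 of them higher with hairpin 2), 3 with a mean count of at least 50, 2 with only the 4 hairpin libraries and 2 with only the 6 coculture libraries. It was 14 with the length offset and, in fits chosen after seeing the data, 25 with a length and GC offset and 15 with a coding length offset. Leaving out each library in turn gave 0 (without hairpin 2 library 1) to 3 calls, where a lone library is assumed to vary like the other groups. With 2 libraries per hairpin, the calls of OAS2, RPN1 and HSPA6 rest on all 8 libraries. All 24 named genes other than GJA1 kept their sign in all 19 alternatives. GJA1 ran from 0.19 to 0.28 and did not pass in any, and the interferon-stimulated median ran from 0.20 to 0.27. The excess of the shortest over the longest decile (0.26) was -0.0601 with the length offset, -0.0619 with the length offset and replicate block and -0.0621 with the length and GC offset, all by construction, 0.07 with no count minimum, 0.21 by coding length, and 0.0388 to 0.498 with each library left out.

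Replicate numbers were not used to pair the samples. The replicate differences of the hairpins correlated across genes at 0.14 and those of the control groups at 0.20. The other 4 pairs of groups gave -0.38 to -0.05. These differences carry the length trend of each library, so whether libraries of the same number were prepared together cannot be told from them. With the replicate block 0 genes passed (edgeR), 728 had an unadjusted p under 0.05, and with the length offset and block 4 passed. The DESeq2 test without the block gave 18.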
